A study of Mus musculus with 3 samples.

Results

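The genes described here encode ligands of LRP1, a large endocytic receptor, together with the activators of plasminogen and their receptor. They were A2m, Apoe, Serpine2, Plat, Plau, Plaur, Ptn, Mdk and Lpl. They were chosen by symbol, and all 9 symbols were found once among the 31053 genes of the deposited matrices. The study sequenced 3' transcripts of single cells from dorsal skin of C57BL/6 mice aged 7 weeks, with 1 library for each of 3 groups. Control mice given glycerin gave the library called normal. The IMQ library came from mice in which imiquimod, a Toll-like receptor agonist, had induced psoriasis-like skin, and the IMQ+celastrol library from mice given both imiquimod and celastrol, a plant triterpenoid. The labels named no genetic alteration, and the number of animals behind each library is not given in the labels. The series title names LRP1 as the target of celastrol, so the question asked of these genes was where their transcripts lay in each library and how their levels differed between libraries.

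Plasminogen activators are serine proteases that cut plasminogen into plasmin, a protease that dissolves fibrin and helps degrade matrix. Plat encodes the tissue-type activator and Plau the urokinase-type activator, which acts at the cell surface when bound to the receptor encoded by Plaur. Serpine2 encodes protease nexin 1, a serpin that inhibits thrombin and plasminogen activators, and A2m encodes alpha-2-macroglobulin, a broad protease trap of plasma. LRP1 takes up many such protease and inhibitor complexes, and also lipoproteins carrying apolipoprotein E (Apoe) or lipoprotein lipase (Lpl), the enzyme that hydrolyses triglycerides. Pleiotrophin (Ptn) and midkine (Mdk) are heparin-binding growth factors of 1 family that also bind LRP1. In skin, plasminogen activation is known from migrating keratinocytes and inflammatory cells, while pleiotrophin and midkine are known from the hair follicle.

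Levels are counts of unique molecular identifiers (UMIs) of a gene, summed over the cells of a class and divided by all UMIs of that class, per 1000000 (CPM). The normal library kept 9558 cells after filters, the IMQ library 7495 and the IMQ+celastrol library 6092, with a median of 5740, 8862 and 10558 UMIs. The cells fell into 44 clusters, of which 37 were named by marker genes as 18 classes. Intervals are 95% counting intervals. They leave out the spread between animals, which 1 library per group cannot show, so no test was made and an effect of treatment and a difference between libraries cannot be told apart. The mix of cells also differed: fibroblast-like cells made up 22.2%, 43.1% and 33.9% of kept cells in the normal, the IMQ and the IMQ+celastrol library. Inner root sheath or hair shaft-like cells numbered 1105, 1 and 1. Keratinocyte-like cells of the normal library lay mainly in clusters 3, 26 and 37, those of the IMQ library in clusters 10 and 13, and those of the IMQ+celastrol library in clusters 17, 10 and 13. Their median depth was 8680.0, 43326 and 29884 UMIs. T cell-like cells, with a median of 2764, 3196 and 2524 UMIs, served as a gauge of free RNA. Krt14, a keratin of basal epidermis, stood there at 55.3, 171 and 424 CPM. Krt5, another such keratin, had 38.1, 38.2 and 129 CPM, and the fibroblast marker Col1a1 22.4, 20.6 and 134 CPM. The gauge thus differed between libraries and was highest in IMQ+celastrol for each of these genes. Only Krt14 was also higher in IMQ than in normal beyond counting error.

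Over all kept cells, both plasminogen activators, the urokinase receptor and lipoprotein lipase were higher in the IMQ than in the normal library, and apolipoprotein E, pleiotrophin and midkine were lower. Plau differed most among the higher genes, at 6.24, 30.7 and 13.0 CPM in the normal, the IMQ and the IMQ+celastrol library. Ptn differed most among the lower ones, at 238, 22.6 and 46.9 CPM. The IMQ+celastrol library lay between the others for Plau, Apoe, Lpl, Ptn and Mdk, below both for Plaur, close to the IMQ library for Plat and above both for Serpine2. Of the 8 genes with at least 50 UMIs in the normal and IMQ libraries together, 4 were at least 1.5-fold higher in IMQ (Plat, Plau, Plaur and Lpl) and 3 at least 1.5-fold lower (Apoe, Ptn and Mdk). Among all genes that met the same minimum, 16.2% were that much higher and 22.8% that much lower. With median-of-ratios size factors instead of totals these were 3113 genes higher and 2876 lower, in place of 2543 and 3574. The median log2 ratio of the 8 genes was 0.51, against -0.12 over all genes. Between IMQ+celastrol and IMQ, 3 of 8 were at least 1.5-fold higher (Apoe, Ptn and Mdk) and 3 at least 1.5-fold lower (Plau, Plaur and Lpl), where 6.92% and 11.6% of all genes were. The 2 comparisons share the IMQ library, so a high or low value there moves both in opposite directions.

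**Figure D1:**
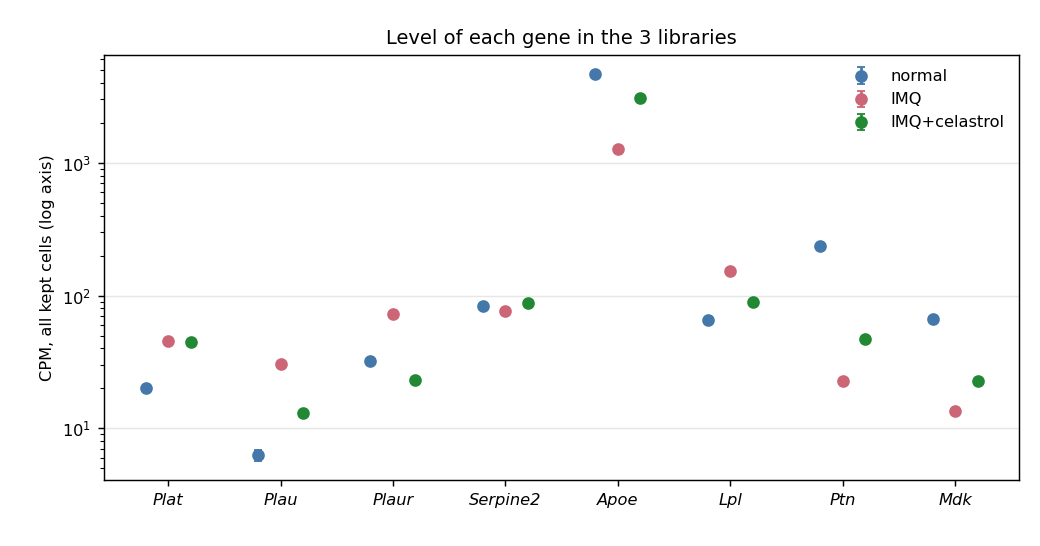
Level of 8 genes over all kept cells in CPM (log axis), 1 point per library, with 95% counting intervals that are mostly smaller than the points. Plau goes from 6.24 CPM in the normal library to 30.7 in the IMQ library, while Ptn goes from 238 to 22.6. A2m, with 5 UMIs in all, is not drawn.

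Part of these differences moved with the mix of cells. When each library was given the class shares of the normal library, over 10 classes that held 68.7% of the normal UMIs, the log2 ratio of IMQ over normal for Plau was 1.99, against 2.30 with the mix as it was. The same step left 0.30 of 1.18 for Plat, 0.17 of 1.16 for Plaur and 0.37 of 1.24 for Lpl, all under 1.5-fold. For the lower genes it left -1.53 of -1.87 for Apoe, -1.88 of -3.39 for Ptn and -1.44 of -2.31 for Mdk. Between IMQ+celastrol and IMQ, Plau, Plaur, Apoe and Ptn stayed past 1.5-fold with the mix held, at log2 ratios of -1.28, -0.79, 1.04 and 0.77. Those of Lpl and Mdk were -0.29 and 0.07.

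**Figure D2:**
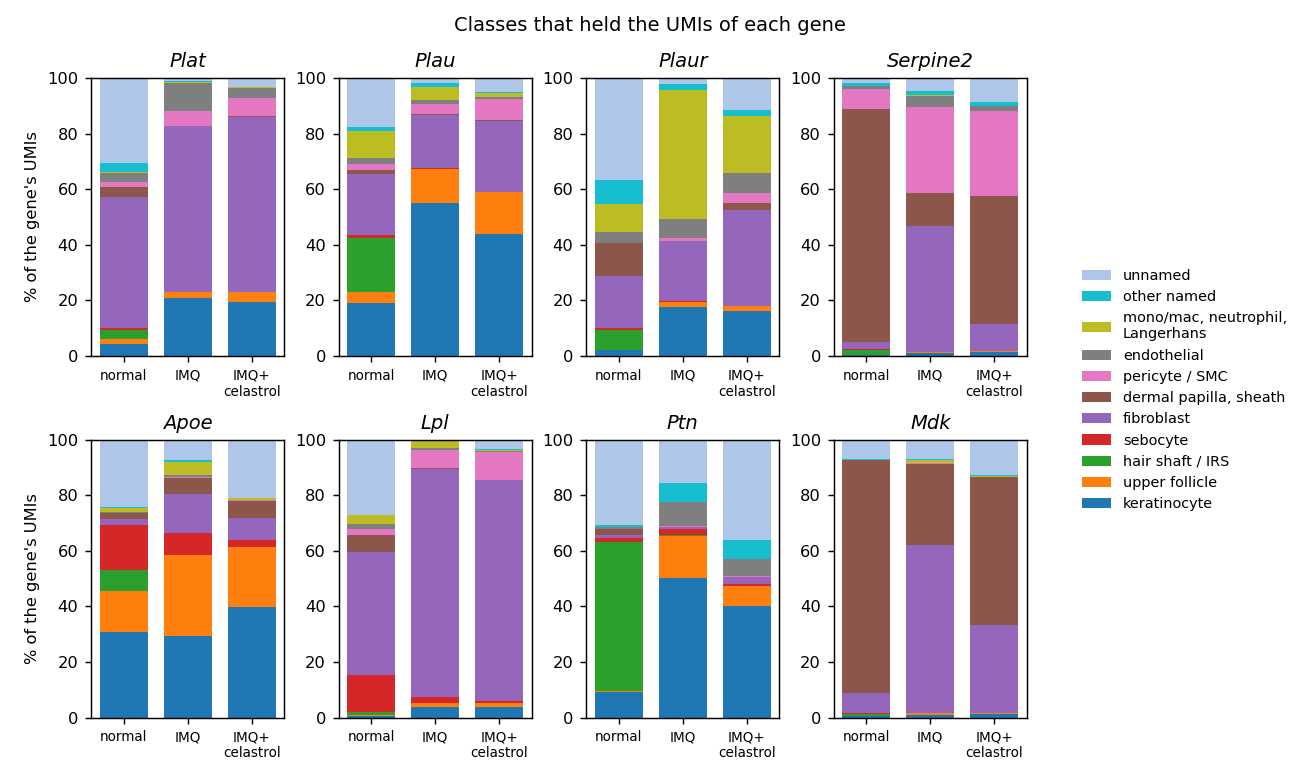
Share of each gene's UMIs (percent) held by each class in the 3 libraries, as stacked bars that add up to the gene's whole. Keratinocyte-like cells hold 19.0% of Plau in the normal and 55.1% in the IMQ library, and inner root sheath or hair shaft-like cells hold 53.5% of Ptn in the normal library.

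Promoter sequences are shown for genes that differed in opposite directions between the normal and IMQ libraries, Plaur on 1 side and Ptn and Apoe on the other. The RefSeq promoter table (GRCm38.p6) matched Apoe, Plaur, Ptn and Serpine2, 4 of the 9 symbols. Each run holds the 250 bases before the annotated start, 5' to 3' on the gene's strand. Capitals mark matches on either strand to 4 short motifs of known transcription factors. That of AP-1, a factor of stress and growth signals, was TGANTCA. For Sp1, which binds GC-rich promoters, GGGCGG was searched. The box bound by NF-Y was taken as CCAAT, and the last motif was the TATA box, TATAAA. From the run of Ptn the 41 bases next to the start, which are an exon of another transcript in GENCODE M21, were left out. For Apoe, which has 3 starts in the table, the window at the GENCODE start of the gene is printed.
Plaur, chr7:24462233-24462482, plus strand: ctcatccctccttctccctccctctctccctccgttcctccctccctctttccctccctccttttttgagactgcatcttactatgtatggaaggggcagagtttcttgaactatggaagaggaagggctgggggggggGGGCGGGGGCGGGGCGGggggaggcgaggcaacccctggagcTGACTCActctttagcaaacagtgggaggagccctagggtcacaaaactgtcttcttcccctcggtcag
Ptn, chr6:36810221-36810429, minus strand: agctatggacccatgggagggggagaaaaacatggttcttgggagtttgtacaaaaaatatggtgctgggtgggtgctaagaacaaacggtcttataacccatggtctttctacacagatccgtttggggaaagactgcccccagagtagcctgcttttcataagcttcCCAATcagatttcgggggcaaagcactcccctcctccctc
Apoe, chr7:19699189-19699438, minus strand: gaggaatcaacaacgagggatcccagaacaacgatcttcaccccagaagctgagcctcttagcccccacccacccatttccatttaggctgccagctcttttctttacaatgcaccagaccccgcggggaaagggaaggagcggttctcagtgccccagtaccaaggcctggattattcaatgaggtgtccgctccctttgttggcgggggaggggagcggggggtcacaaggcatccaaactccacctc
Plaur had 1 AP-1 match, at bases 69 to 63 before the start, and 3 Sp1 matches between bases 111 and 95, 2 of them sharing 1 base. Ptn had 1 CCAAT match, at bases 81 to 77. The printed window of Apoe held none of the 4 motifs, and 1 of its other windows held 2 TATA box matches. Serpine2 had 6 Sp1 matches and none of the others. Among all 32851 windows of this length 6.75% held an AP-1 match, 32.7% an Sp1 match, 33.8% a CCAAT match and 12.4% a TATA match. A match is a run of letters and not a measured binding site.

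Urokinase (Plau; ENSMUSG00000021822, chr14:20836660-20843385, plus strand on GRCm38) had 19.0% of its UMIs in keratinocyte-like cells in the normal library, where fibroblast-like cells held 21.8% and inner root sheath or hair shaft-like cells 19.2%. In the IMQ and IMQ+celastrol libraries keratinocyte-like cells held 55.1 and 43.8%. In keratinocyte-like cells it stood at 5.25, 48.3 and 14 CPM in the normal, the IMQ and the IMQ+celastrol library. The IMQ level was 9.20-fold (95% interval 7.35 to 11.7) the normal one, and the IMQ+celastrol level 3.46-fold (95% interval 3.14 to 3.81) below the IMQ one. Basal and differentiated cells shared this order. The basal cells held 5.46, 52.5 and 12.7 CPM and the differentiated cells 4.60, 42.8 and 17.5 CPM. Upper follicle-like cells, which line the follicle mouth, had it too, with 5.70, 31.8 and 14.1 CPM, over cluster 24 in the normal library and cluster 8 in the others. A Plau UMI was found in 4.73, 64.8 and 28.6% of keratinocyte-like cells. With every cell thinned to 2000 UMIs the shares were 0.936, 8.49 and 2.62%, in the same order. In T cell-like cells 0.885, 3.46 and 0.867% held a UMI before and 0.355, 2.66 and 0.837% after thinning, at 2.86, 11.3 and 2.40 CPM. The keratinocyte-like level stood above this gauge in the IMQ and IMQ+celastrol libraries, and in the normal library it lay within the gauge's interval (1.05 to 6.22 CPM). Clusters 10 and 13, which both imiquimod libraries shared, gave the comparison within 1 cluster: cluster 10 went from 52.4 CPM in IMQ to 14.7 in IMQ+celastrol, 3.56-fold (95% interval 3.08 to 4.11) lower, and cluster 13 from 42.8 to 17.6, 2.43-fold (95% interval 2.06 to 2.89) lower.

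Outside the epidermis Plau was held by few cells. Fibroblast-like cells had 10.5, 19.7 and 15.7 CPM, 1.87-fold (95% interval 1.5 to 2.36) higher in IMQ than in normal, with the IMQ+celastrol level 1.25-fold (95% interval 1.09 to 1.44) below IMQ. Most of it lay in clusters 2 (led by Thbs4, Myoc and Hmcn2) and 14 (led by Smpd3, Chrdl1 and Dpp4). Cluster 14 held 101, 85.6 and 65.5 CPM and cluster 2 38.2, 46.3 and 26.2 CPM. Within these clusters the IMQ library was thus within 1.5-fold of the normal one, and the higher class level in IMQ goes with more cells of both clusters there (497 and 307 against 175 and 89). Monocyte or macrophage-like cells, which held the highest Plau level of 15 classes in the normal library, went the other way from keratinocyte-like cells, at 67.8, 29.6 and 22.1 CPM from 23, 116 and 13 UMIs. In that class the cells of the normal library lay mainly in cluster 36 (116 of 138, led by C1qb, C1qa and C1qc) and those of IMQ in cluster 15 (528 of 584, led by Chil3, Lyz2 and Cybb).

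The urokinase receptor gene Plaur (ENSMUSG00000046223, chr7:24462484-24475968, plus strand) stood highest in myeloid cells, while fibroblast-like cells, with many more cells, held 18.5, 21.7 and 34.5% of its UMIs in the normal, the IMQ and the IMQ+celastrol library. Neutrophil-like cells, of which the normal library held only 7, had 1903 CPM in IMQ and 1169.5 in IMQ+celastrol, 1.63-fold (95% interval 1.41 to 1.89) lower. Monocyte or macrophage-like cells had 200.3, 419 and 275 CPM, 2.09-fold (95% interval 1.64 to 2.70) higher in IMQ than in normal, but over different clusters, mainly 36 in normal and 15 in IMQ. Within cluster 36 the direction was the opposite, with 137 CPM in normal and 57.2 in IMQ, 2.39-fold (95% interval 1.41 to 4.08) lower. Langerhans-like cells, the antigen-presenting cells of the epidermis, had 208 CPM in normal and 556 in IMQ, 2.67-fold (95% interval 2.23 to 3.22) higher. Neutrophil-like cells made up 0.0732, 1.83 and 1.10% of kept cells in the normal, the IMQ and the IMQ+celastrol library and held 0.505, 16.2 and 10.03% of Plaur UMIs. Monocyte or macrophage-like cells made up 1.44, 7.79 and 1.82% and held 3.12, 21 and 7.32%. In the normal library cluster 27 (led by H2-Eb1, H2-Ab1 and Mgl2, with genes of antigen presentation), whose marker scores were too low for a name, held 291 cells at 388 CPM, from 630.0 of 2179 Plaur UMIs.

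In keratinocyte-like cells Plaur stood at 2.89, 36.7 and 9.12 CPM, 12.7-fold (95% interval 9.41 to 17.6) higher in IMQ than in normal and 4.02-fold (95% interval 3.57 to 4.53) lower in IMQ+celastrol than in IMQ. In the differentiated cells 1 Plaur UMI was counted in 366 normal cells, against 676 in 424 IMQ cells and 67 in 300 IMQ+celastrol cells. The ratio of IMQ to normal rests on that single UMI and has an interval from 27.3 to 6041-fold. A Plaur UMI was seen in 2.40, 48.9 and 18.3% of keratinocyte-like cells, or 0.936, 7.75 and 1.86% after thinning, while T cell-like cells held 14, 10.9 and 9.83%, or 11.7, 6.82 and 5.44% after thinning, at 87.7, 48.3 and 38.4 CPM. The T cell-like level came mostly from cluster 11, at 139.7, 142 and 161 CPM, against 47.3, 19.0 and 0 in cluster 20 and 18.6, 45.1 and 4.27 in cluster 22. For Plaur these cells are therefore no measure of free RNA. Within cluster 13 the IMQ+celastrol level was 6.34-fold (95% interval 4.92 to 8.29) below IMQ and within cluster 10 2.68-fold (95% interval 2.29 to 3.16) below. Fibroblast-like cells, at 46.1, 51.9 and 37.6 CPM, stayed within 1.5-fold in both comparisons. Blood endothelial-like cells had 81.0 CPM in normal and 268 in IMQ, 3.32-fold (95% interval 2.48 to 4.51) higher over 187 and 52 cells.

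The tissue-type activator Plat (ENSMUSG00000031538, chr8:22757727-22782844, plus strand) came mainly from fibroblast-like cells, which held 47.2, 59.5 and 63.0% of its UMIs. Their level was 73.6, 90.5 and 132 CPM, 1.23-fold (95% interval 1.13 to 1.34) higher in IMQ than in normal and 1.46-fold (95% interval 1.38 to 1.54) higher in IMQ+celastrol than in IMQ, neither past 1.5-fold. Single clusters stood otherwise. Cluster 14 had 359 CPM in normal, 171 in IMQ and 324 in IMQ+celastrol, and cluster 2 had 209, 112 and 169. Both were lower in IMQ than in normal, 2.10-fold (95% interval 1.70 to 2.58) and 1.87-fold (95% interval 1.56 to 2.22), and higher again in IMQ+celastrol. Cluster 1 (led by Cpz, Col1a1 and Ccl19), with 1145 of the 2118 normal fibroblast-like cells, had 45.8 CPM. Cluster 0 (led by Saa3, Tnc and Cxcl12), with 1008 of the 3234 IMQ ones, had 96.2 CPM. Cluster 9 (led by Tnn, Lrrc15 and Postn) scored best for fibroblasts but was left without a name, because its leading genes included markers of another class. It had 50.8, 10.3 and 14.7 CPM.

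Plat was also found in differentiated keratinocyte-like cells of the imiquimod libraries, at 1.35, 53.6 and 52.1 CPM, 39.6-fold (95% interval 16.9 to 122) higher in IMQ than in normal from 877 and 5 UMIs. IMQ+celastrol did not differ from IMQ beyond counting error there (ratio 0.972, interval 0.871 to 1.08). Plat therefore stood apart from Plau and Plaur in these cells, both of which were lower with celastrol. Basal keratinocyte-like cells held only 4.59, 7.60 and 10.1 CPM. Lymphatic endothelial-like cells had 198, 314 and 143 CPM, with the IMQ+celastrol level 2.19-fold (95% interval 1.81 to 2.66) below IMQ. Lymphatic endothelial-like cells thus had the highest Plat level of all classes with at least 50 cells in each library, and in IMQ+celastrol their interval (121 to 169 CPM) overlapped that of fibroblast-like cells (127 to 137 CPM). T cell-like cells held 0, 4 and 3 Plat UMIs in 678, 752 and 346 cells.

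Among the inhibitors, Serpine2 (ENSMUSG00000026249, chr1:79794197-79861180, minus strand) lay in mesenchymal cells, in different ones in each library. Its level over all kept cells was 83.7, 76.0 and 87.9 CPM, within 1.5-fold in both comparisons. In the normal library 81.8% of its UMIs lay in dermal papilla-like cells, the signalling cells at the base of the follicle, at 1557 CPM. In the IMQ library that share was 11.5%, while fibroblast-like cells held 45.4% and pericyte or smooth muscle-like cells 31.1%. The normal papilla cells were nearly all in cluster 21 (498 cells, no cell of the other libraries) and those of the other libraries in cluster 18 (184 and 337 cells). Cluster 18 was shallow, with a median of 2246 UMIs, and kept its name in fewer cells under other clusterings, so dermal papilla-like levels are not compared between libraries here. After the dermal papilla-like class, pericyte or smooth muscle-like cells came next in level and stayed within 1.5-fold, at 542, 396 and 442 CPM. In IMQ their interval (381 to 412 CPM) overlapped that of Schwann-like cells (249 to 392 CPM). T cell-like cells had 2.86, 13.7 and 15.2 CPM.

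Fibroblast-like cells held 15.4, 115 and 39.5 CPM of Serpine2, 7.44-fold (95% interval 6.26 to 8.90) higher in IMQ than in normal and 2.90-fold (95% interval 2.68 to 3.13) lower in IMQ+celastrol than in IMQ. The high IMQ level came from cluster 0, at 123 CPM, and cluster 5 (led by Coch, Mmp11 and Cyp1b1), at 206 CPM, which held 44.7 and 36.3% of the class's UMIs of the gene. In IMQ+celastrol the same clusters had 53.7 and 32.7 CPM, the latter from 17 UMIs in 61 cells. Clusters 2 and 14, present in all libraries, went from 22.9 and 39.6 CPM in normal to 62.4 and 56.6 in IMQ and 60.6 and 57.8 in IMQ+celastrol. There the celastrol library did not differ from the IMQ library beyond counting error. The unnamed cluster 9, which scored best for fibroblasts and is not counted in this class, had 14.3, 414 and 217 CPM. It was 28.9-fold (95% interval 20.2 to 42.4) higher in IMQ than in normal. In IMQ+celastrol it was 1.91-fold (95% interval 1.62 to 2.23) lower than in IMQ. With no doublets left out, the log2 ratio of IMQ+celastrol over IMQ in fibroblast-like cells was -0.53 instead of -1.53, short of 1.5-fold. The class itself changed in that setting. It took in a cluster of 63, 407 and 394 cells led by Tnn, with Serpine2 among its leading genes. The part of this cluster in the move was not tested.

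The other genes of plasminogen activation, its inhibitors and its binding sites form a list of 16, of which 12 had enough UMIs over all kept cells. Between IMQ and normal 4 were at least 1.5-fold higher (among them Serpinf2, F3 and Hgf) and 2 lower (S100a10 and Serpini1), beside 16.2% and 22.8% of all genes, with a median log2 ratio of 0.25. Between IMQ+celastrol and IMQ 1 was higher (Serpini1) and 3 lower (among them Serpinf2 and Hgf), beside 6.92% and 11.6% of all genes. Among proteins that bind plasminogen at the cell surface, S100a10 had 1502, 845 and 974 CPM, Anxa2 1087, 1108 and 1440.2 and Eno1 153, 226 and 259. Plasminogen itself (Plg), made mainly by the liver, had 13 UMIs in all 3 libraries together.

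Alpha-2-macroglobulin (A2m; ENSMUSG00000030111, chr6:121635376-121679227, plus strand) was all but undetected, with 1, 2 and 2 UMIs in the normal, the IMQ and the IMQ+celastrol library. Of these 5 UMIs 4 lay in fibroblast-like cells. The highest level that these counts allow was 0.0824, 0.0669 and 0.0755 CPM, and no ratio is given. In its family Pzp had 1 UMI and A2ml1 5. Cd109, a membrane-anchored member, was the only one of 5 with enough UMIs, at 57.9, 43.5 and 81.1 CPM, and in keratinocyte-like cells at 151, 65.0 and 111 CPM.

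**Figure D3:**
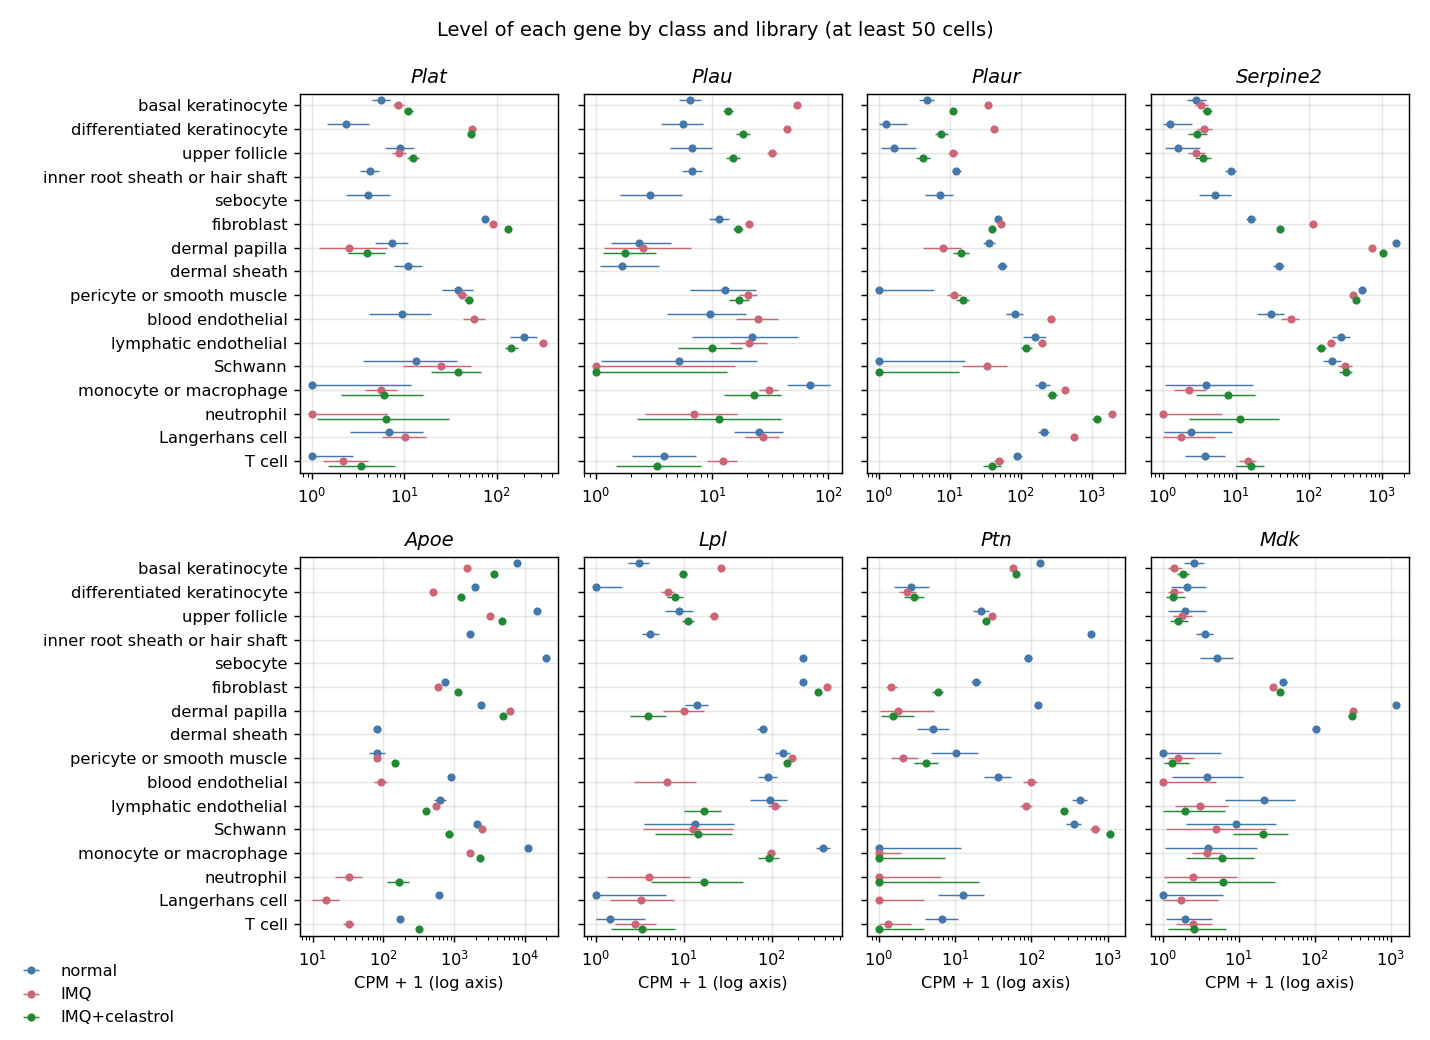
Level of 8 genes in CPM plus 1 (log axis) for each class with at least 50 cells in a library, 1 point per library, with 95% counting intervals. Plaur is highest in neutrophil-like cells (1903 CPM in IMQ), and Plau and Plaur of keratinocyte-like cells stand in the order normal, IMQ+celastrol, IMQ. The dermal papilla-like row joins different clusters in the normal and the other libraries.

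Apolipoprotein E (Apoe; ENSMUSG00000002985, chr7:19696109-19699188, minus strand) was found in epithelial, macrophage and dermal papilla-like cells and was lower in the IMQ than in the normal library in most of the classes that carried it. Basal keratinocyte-like cells had 7785, 1506 and 3584 CPM, 5.17-fold (95% interval 5.10 to 5.24) lower in IMQ than in normal and 2.38-fold (95% interval 2.35 to 2.41) higher in IMQ+celastrol than in IMQ. Upper follicle-like cells had 14728, 3151 and 4774 CPM, 4.67-fold (95% interval 4.61 to 4.74) lower in IMQ. In neither of these classes did a cluster hold at least 50 cells in both the normal and the IMQ library. Both ratios of IMQ to normal thus compare different clusters. Monocyte or macrophage-like cells had 10989, 1686 and 2299 CPM, 6.52-fold (95% interval 6.26 to 6.78) lower in IMQ, but IMQ+celastrol stayed within 1.5-fold of IMQ there. Within cluster 36 Apoe stood at 13397 CPM in normal and 4147 in IMQ. Langerhans-like cells had 598 CPM in normal and 14.6 in IMQ. Sebocyte-like cells, which make the lipids of sebum, had 19743 CPM in the normal library. The other libraries held fewer than 50 of them. Cluster 23 (led by Lmo1, Aldh3a1 and Sostdc1), best scored as basal keratinocyte but without a name for the same reason as cluster 9, had 22425, 4102 and 10481 CPM.

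Fibroblast-like cells held 740.1, 589 and 1117 CPM of Apoe, within 1.5-fold between IMQ and normal and 1.90-fold (95% interval 1.86 to 1.93) higher in IMQ+celastrol than in IMQ. All 6 fibroblast-like clusters with at least 50 cells in both of these libraries were higher with celastrol, from 1.13-fold in cluster 14 to 3.58-fold in cluster 0. Cluster 12 (led by Apod and Gdf10) held the most, at 2871, 1484 and 2566 CPM. Between IMQ and normal clusters 2, 4 and 12 were lower, by 1.94, 1.89 and 1.93-fold, and cluster 14 was 1.82-fold (95% interval 1.54 to 2.18) higher. The unnamed cluster 9, which scored best for fibroblasts, went the other way in both comparisons from the class, at 156, 908 and 557 CPM. It was 5.82-fold (95% interval 5.09 to 6.66) higher in IMQ than in normal. With celastrol it was 1.63-fold (95% interval 1.47 to 1.81) lower than in IMQ. The free-RNA gauge moved the same way as the fibroblast-like class. T cell-like cells had 171, 31.3 and 321 CPM, with a UMI in 18.6, 10.9 and 35.3% of cells. That was 10.3-fold (95% interval 8.26 to 12.9) higher in IMQ+celastrol than in IMQ. Neutrophil-like cells had 31.7 and 163 CPM in those libraries. The gauge was uneven, since T cell-like cluster 11 had 244, 71.1 and 975 CPM of Apoe. It held 278 of the 402 Apoe UMIs of T cell-like cells in IMQ+celastrol. The part of free RNA in the fibroblast-like difference was not tested. Schwann-like cells had 2070.3, 2469.7 and 846 CPM and lymphatic endothelial-like cells 630.1, 545 and 398 CPM, both lower in IMQ+celastrol than in IMQ. Dermal papilla-like cells had the highest Apoe level of the classes with at least 50 cells in IMQ, at 6131 CPM. Within their cluster 18, which was shallow and held 59 normal cells, Apoe had 4129, 6131 and 4847 CPM. It was 1.48-fold (95% interval 1.38 to 1.60) higher in IMQ than in normal. In IMQ+celastrol it was 1.26-fold (95% interval 1.23 to 1.30) lower than in IMQ.

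Lipoprotein lipase (Lpl; ENSMUSG00000015568, chr8:68880491-68907448, plus strand) was a fibroblast transcript in these libraries. Fibroblast-like cells held 44.4, 82.3 and 79.3% of its UMIs at 223, 421 and 337 CPM, 1.89-fold (95% interval 1.80 to 1.98) higher in IMQ than in normal and within 1.5-fold between IMQ+celastrol and IMQ. The clusters did not move together. Cluster 0, found almost only in the imiquimod libraries, had 627 and 758 CPM. Cluster 2 had 443, 236 and 348 CPM, lower in IMQ than in normal, and cluster 14 had 289, 457 and 476, higher in IMQ. Cluster 4 had 157, 19.1 and 68.4 CPM, 8.22-fold (95% interval 3.75 to 22.5) lower in IMQ than in normal, from 6 and 446 UMIs. Cluster 12 had 464, 536 and 462 CPM, with no difference between IMQ and normal beyond counting error. The unnamed cluster 9, which scored best for fibroblasts, had 403, 34.5 and 33.6 CPM, 11.7-fold (95% interval 7.53 to 19.2) lower in IMQ than in normal. At resolution 2 and with Scrublet's own doublet threshold (which called no cell in IMQ, where the rate was kept) the class ratio was 0.57 and 0.58 on the log2 scale, just short of 1.5-fold, instead of 0.92. Pericyte or smooth muscle-like cells had 132, 169 and 146 CPM and stayed within 1.5-fold. In the normal library the highest class level was that of monocyte or macrophage-like cells, and those of sebocyte-like (206 to 242 CPM) and fibroblast-like cells (213 to 233 CPM) overlapped in their intervals.

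Outside the fibroblasts, Lpl was lower in IMQ than in normal in monocyte or macrophage-like cells, at 383, 96.6 and 91.7 CPM over different clusters. Within cluster 36 it was 476 and 379 CPM, a ratio of 0.797 (interval 0.632 to 1.01), so the lower level was not seen within 1 cluster beyond counting error. Blood endothelial-like cells had 89.5 CPM in normal and 5.44 in IMQ from 63 and 5 UMIs. Keratinocyte-like cells moved the other way, at 1.58, 16.8 and 8.35 CPM, 10.7-fold (95% interval 7.10 to 16.8) higher in IMQ than in normal and 2.01-fold (95% interval 1.76 to 2.31) lower in IMQ+celastrol than in IMQ. After thinning 0.499, 2.83 and 1.52% of these cells held a UMI, against 0.177, 0.333 and 0.418% of T cell-like cells. Lymphatic endothelial-like cells had 93.7, 107 and 15.9 CPM, 6.73-fold (95% interval 4.01 to 12.1) lower in IMQ+celastrol than in IMQ. T cell-like cells held 1, 6 and 3 UMIs.

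A list of 14 partners of lipoprotein lipase and apolipoproteins had 12 genes with enough UMIs over all kept cells. Between IMQ and normal 2 were at least 1.5-fold higher (Nr1h3 and Lipa) and 3 lower (Apoc1, Apoa1 and Cd36), shares near the 16.2% and 22.8% of all genes. Between IMQ+celastrol and IMQ 1 was higher (Apoc1) and 3 lower (Gpihbp1, Angptl4 and Cd36), beside 6.92% and 11.6% of all genes. Apoc1, another apolipoprotein, followed the order of Apoe, at 555, 261 and 472 CPM. Gpihbp1, which anchors lipoprotein lipase to the capillary wall, had 13.0, 10.9 and 2.77 CPM, and Cd36, a fatty acid receptor, 24.0, 10.7 and 1.90 CPM. Blood endothelial-like cells numbered 187, 52 and 22, and the part of this number in the levels of both genes was not tested. Angptl4, an inhibitor of the lipase, had 73.4, 98 and 41.1 CPM, Abca1, a cholesterol exporter, 43.9, 62.9 and 49.9 CPM, and Apoa1 0.902, 0.222 and 0.324 CPM.

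Pleiotrophin (Ptn; ENSMUSG00000029838, chr6:36714929-36810220, minus strand) was mainly a transcript of follicle epithelium in the normal library. There inner root sheath or hair shaft-like cells, at 612 CPM, held 53.5% of its UMIs. With each library clustered by itself this name went to only 2 normal clusters, of 105 and 41 cells. Cluster 7 (led by Gnmt, Lhx2 and Tbx1), also best scored as basal keratinocyte and also without a name, had 631 CPM in 830 normal cells. The imiquimod libraries held 1 inner root sheath or hair shaft-like cell each, and 22 and 19 cells of cluster 7. Without these clusters and the dermal papilla-like and dermal sheath-like cells, the log2 ratio of IMQ over normal was -1.57 over the other cells, against -3.39 over all kept cells. Among named classes with at least 50 cells, basal keratinocyte-like cells held the most Ptn UMIs in IMQ and IMQ+celastrol. Schwann-like cells had the highest level there. Basal keratinocyte-like cells had 129, 56.3 and 62.2 CPM, 2.29-fold (95% interval 2.12 to 2.47) lower in IMQ than in normal, over different clusters. As a class, IMQ+celastrol stayed within 1.5-fold of IMQ. Cluster 10, which both imiquimod libraries shared, had 56.7 CPM in IMQ and 93.0 in IMQ+celastrol. That is 1.64-fold (95% interval 1.52 to 1.77) higher with celastrol. Differentiated cells held no more than 1.86 CPM in any library.

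Schwann-like cells, the glia of skin nerves, had 359.7, 688 and 1065 CPM, 1.91-fold (95% interval 1.47 to 2.51) higher in IMQ than in normal, the opposite of basal keratinocyte-like cells. Lymphatic endothelial-like cells had 432, 85.2 and 269 CPM, 5.07-fold (95% interval 3.79 to 6.77) lower in IMQ than in normal and 3.16-fold (95% interval 2.54 to 3.95) higher in IMQ+celastrol than in IMQ. Fibroblast-like cells held little, at 17.7, 0.430 and 4.93 CPM from 155, 14 and 100 UMIs. That is 41.1-fold (95% interval 23.8 to 77.0) lower in IMQ than in normal and 11.5-fold (95% interval 6.52 to 21.7) higher in IMQ+celastrol than in IMQ. The T cell-like gauge had 12, 1 and 0 UMIs, or 5.72, 0.298 and 0 CPM, and the part of free RNA in the normal fibroblast-like level was not tested.

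Midkine (Mdk; ENSMUSG00000027239, chr2:91929805-91932297, minus strand) was mainly a dermal papilla transcript in the normal library. There 77.1% of its UMIs lay in dermal papilla-like cells at 1162 CPM and 6.56% in dermal sheath-like cells at 102 CPM. The IMQ and IMQ+celastrol libraries held 184 and 337 dermal papilla-like and 0 and 4 dermal sheath-like cells, against 557 and 315 in normal. Dermal papilla-like cells had the highest class level there too, at 322 and 305 CPM. In IMQ, however, fibroblast-like cells held more Mdk UMIs (876) than dermal papilla-like cells. In IMQ+celastrol they held fewer (689). Fibroblast-like cells had 37.8, 26.9 and 34.0 CPM and stayed within 1.5-fold in both comparisons. Within them, clusters 2 and 12 had 83.9 and 199.98 CPM in normal, 28.3 and 22.2 in IMQ and 50.6 and 45.0 in IMQ+celastrol. Both clusters were thus lower in IMQ than in either other library. Cluster 5, nearly all of it in the IMQ library, had 63.7 CPM. Keratinocyte-like cells held no more than 28 UMIs in a library.

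Receptors of pleiotrophin and midkine were listed as 14 genes, of which 11 had enough UMIs over all kept cells. Between IMQ and normal 2 were at least 1.5-fold higher (Itgb3 and Itga4) and 1 lower (Sdc3), beside 16.2% and 22.8% of all genes. Between IMQ+celastrol and IMQ none passed 1.5-fold, beside 6.92% higher and 11.6% lower among all genes. The heparan sulfate carriers Sdc1 and Sdc4 had 229, 283 and 336 and 446, 328 and 336 CPM, and nucleolin (Ncl) 487, 478 and 429 CPM. None of these 3 genes passed 1.5-fold.

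Counted by class, the genes differed between the epidermis and the dermis. Of 7 genes with enough UMIs there, 5 were at least 1.5-fold higher in IMQ than in normal (Plat, Plau, Plaur, Serpine2 and Lpl) and 2 lower (Apoe and Ptn), where 19.6% and 25.4% of all genes were. Their median log2 ratio was 2.85, against -0.06 over all genes. Serpine2 entered this count with 23 and 96 UMIs, and its interval reached down to 1.06-fold. Its IMQ level there was 2.54 CPM, where T cell-like clusters 11, 20 and 22 had 1.78, 24.9 and 2.71 CPM, and the part of free RNA in it was not tested. Between IMQ+celastrol and IMQ 1 of 7 was higher (Apoe) and 3 lower (Plau, Plaur and Lpl), beside 11.7% and 6.89% of all genes. In fibroblast-like cells 3 of 8 were higher in IMQ than in normal (Plau, Serpine2 and Lpl) and 1 lower (Ptn), beside 13.3% and 12.3% of all genes. There 2 of 8 were higher in IMQ+celastrol than in IMQ (Apoe and Ptn) and 1 lower (Serpine2), beside 11.3% and 5.69% of all genes (1417 and 715, or 984 and 998 with size factors). With so few genes these counts describe the genes named and no more.

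**Figure D4:**
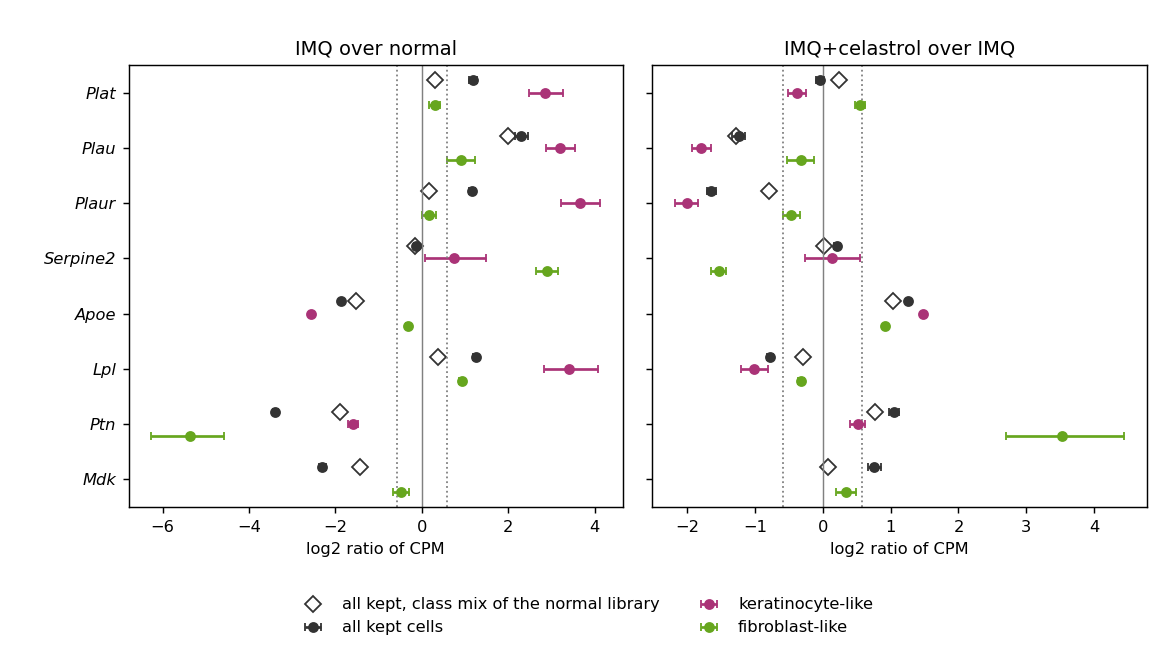
Log2 ratio of CPM for 8 genes, IMQ over normal on the left and IMQ+celastrol over IMQ on the right, with 95% counting intervals. Points stand for all kept cells, keratinocyte-like cells and fibroblast-like cells, diamonds for all kept cells with the class mix of the normal library, and dotted lines for 1.5-fold. In keratinocyte-like cells Plat, Plau, Plaur and Lpl lie right of the line on the left side, from 2.85 to 3.67.

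**Figure D5:**
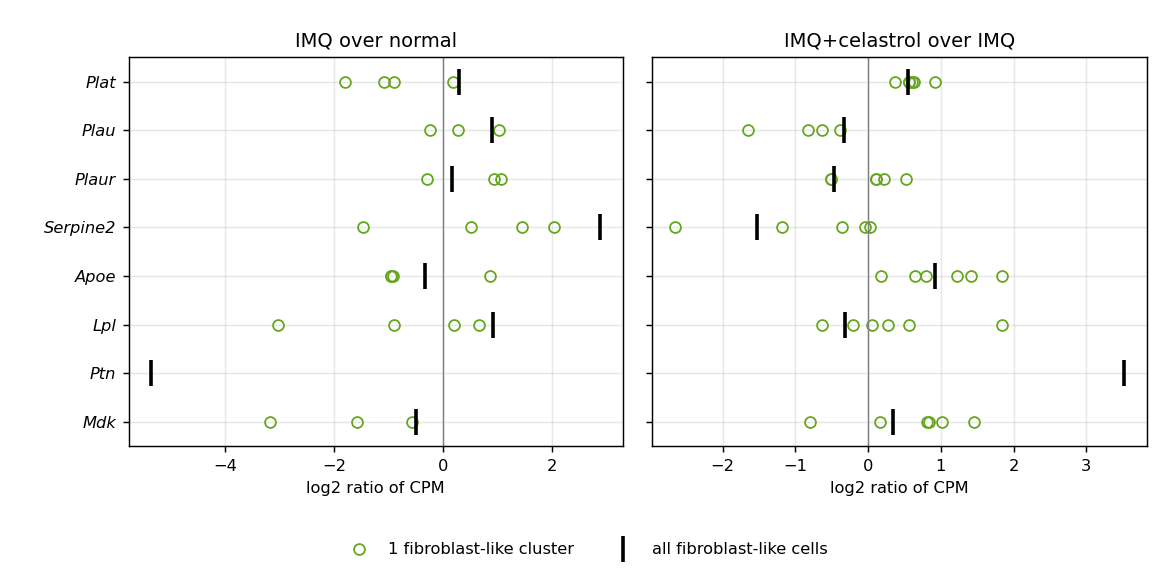
Log2 ratio of CPM in each fibroblast-like cluster with at least 50 cells in both libraries (circles) and in all fibroblast-like cells (bars), for genes with at least 50 UMIs in the cluster. For Plat 3 of 4 clusters lie below 0 between IMQ and normal, although the class as a whole stands at 0.30.

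The receptor Lrp1 itself was a fibroblast transcript, at 714, 1525 and 1204 CPM in fibroblast-like cells and 27.4, 25.3 and 26.2 CPM in keratinocyte-like cells. It held 57.3, 92.2 and 85.0% of its UMIs in fibroblast-like cells, the class that was also the main source of Plat and Lpl. Of 7 receptors of its family with enough UMIs over all kept cells, 1 was at least 1.5-fold higher in IMQ than in normal (Lrp1, at 162, 499 and 300.2 CPM) and 1 lower (Sorl1). Among all genes 16.2% were that much higher and 22.8% that much lower. Lrpap1, the chaperone of these receptors, had 53.3, 46.2 and 50.8 CPM. Among 19 other ligands of LRP1 13 were at least 1.5-fold higher in IMQ than in normal and 1 lower (Pdgfb), beside the same shares of all genes. Their median log2 ratio was 1.06, against -0.12 over all genes. Between IMQ+celastrol and IMQ none was higher over all kept cells and 6 were lower (Thbs2, Ctgf, Mmp9, Mmp13, Timp1 and C3). All genes stood there at 6.92% higher and 11.6% lower. C3, a complement protein, had 54.8, 850.1 and 417 CPM and Timp1, an inhibitor of matrix metalloproteinases, 40.2, 309 and 109 CPM, both mostly in fibroblast-like cells. The metalloproteinases Mmp9 and Mmp13 had 1.85, 12.1 and 2.87 and 0.251, 9.60 and 0.889 CPM. Psap, the precursor of saposins, had 315, 547 and 534 CPM and the chaperone Hsp90aa1 504, 584 and 484 CPM. In fibroblast-like cells 8 of 18 ligands were higher and 2 lower in IMQ than in normal, beside 13.3% and 12.3% of all genes. In keratinocyte-like cells 8 of 18 were higher and 5 lower, beside 19.6% and 25.4%. Fibroblast-like cells had 2 of 18 higher (Timp3 and Fn1) and 5 lower between IMQ+celastrol and IMQ, beside 11.3% and 5.69% of all genes. Keratinocyte-like cells had 4 of 18 higher (Thbs1, Fn1, Pdgfb and Igfbp3) and 3 lower, beside 11.7% and 6.89%.

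The genes differed in the company they kept. Over 39 profiles of class and library, with levels on a log2 scale after adding 10 CPM, Mdk was most like Fgf10 (Pearson r = 0.96), Lamc3 and Rspo1, and Serpine2 most like Trpc1 (r = 0.92), Mtss1l and Cbx6. Fgf10 was also a marker used to name the dermal papilla-like class. Plaur was most like Fes (r = 0.90), Slfn2 and Rin3, and Plat most like Adamtsl1 (r = 0.87), Layn and Slc10a6. Ptn was most like Ctnnal1 (r = 0.85), Itgb4 and Morn2, Lpl most like Fn1 (r = 0.77), Psap and Zdhhc14, and Apoe most like Abhd11 (r = 0.71), Socs6 and Apoc1. Plau had no close match, with Wdr1 (r = 0.61), Atp6v1b2 and Ap2s1 nearest. Between the genes themselves the highest value was 0.59, for Serpine2 and Mdk, and the lowest -0.47, for Plaur and Apoe. Profiles of 1 library share its depth and free RNA, and these values are descriptions without a test.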

How the data were processed

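The deposited matrices hold UMI counts, 1 for each gene in each barcode. The authors used Cell Ranger 4.0.0, per the file headers, with mm10 (GRCm38), per the submitters' processing notes. Any further setting is not given in the sources used here. Libraries held 10565, 8236 and 6777 barcodes with 77880943, 119831835 and 103267738 UMIs (normal, IMQ, IMQ+celastrol), and pairs of libraries shared 15 to 26 barcode sequences.

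Barcodes with under 300 genes or over 20% mitochondrial UMIs were left out, then the cells of highest Scrublet score at 0.8% per 1000 cells (870, 513 and 330 cells), by 1 rule in every library. The cells were clustered together with scanpy 1.11.5 (2000 variable genes, 30 components, 15 neighbours, Leiden resolution 1) with the genes reported here and their lists kept out. Clusters were named from marker lists. The thresholds of the naming (25% of cells, a score of 0.25, 1.2 times the next class, 3 markers, the top 10 genes) were set after the clusters were seen. In some classes libraries held different clusters.

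UMIs were summed per class and library. Levels carry exact Poisson intervals, shares exact Clopper-Pearson intervals and ratios exact conditional binomial intervals, all at 95% and for counting error only. A gene was compared where both libraries together held 50 UMIs, and 1.5-fold is a size, not a test. The ratio and its interval alone were also computed on counts simulated from the summed class totals. They gave back the ratios put into genes with at least 500 UMIs. Filters, doublets, clustering, naming, free RNA and genes with fewer UMIs were not covered by this check. Likeness is Pearson's r of log2(CPM + 10) over classes with at least 50 cells, among genes with at least 500 UMIs, and the 3 nearest genes are named. List genes are named with values where they had the most UMIs of their list (3 a list) or were 4-fold apart between libraries. Some genes that met this rule are not reported here. Plg was added after its values were seen. Positions are from GENCODE M21. The genes and lists were chosen with earlier results of these data known. Alternatives are given in the closing section, and 2 of them, single clusters and all kept cells without follicle clusters, were chosen after the data were seen.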

Additional observations from a re-analysis of the deposited data

Results flagged for a closer look

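For Ptn, Lpl and Apoe the ratio between the same libraries had opposite signs in different classes. With 1 library per group these differences between classes were not tested. Ptn had a log2 ratio of IMQ over normal of 1.45 in blood endothelial-like cells (25 and 89 UMIs in normal and IMQ) and -5.36 in fibroblast-like cells (155 and 14 UMIs). Lpl had a log2 ratio of IMQ over normal of 3.61 in basal keratinocyte-like cells (24 and 544 UMIs) and -4.04 in blood endothelial-like cells (63 and 5 UMIs). Apoe had a log2 ratio of IMQ+celastrol over IMQ of 3.36 in T cell-like cells (105 and 402 UMIs in IMQ and IMQ+celastrol), the class used as a gauge of free RNA, and -1.55 in Schwann-like cells (621 and 251 UMIs).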

How the results depend on the processing

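With 1 library per group no library could be left out. No paired analysis was possible because each group is 1 library. Of 46 ratios of the genes, 31 were past 1.5-fold, and all 305 values of these under the alternatives kept their direction, 290 of them past 1.5-fold. Of 128 counts of the genes under alternatives, 16 moved by more than 1.5 times. Part of this agreement was fixed in advance. Over all kept cells, resolution 2 or clustering each library by itself keeps the same cells, so no ratio or count can move. Lifting the minimum of UMIs leaves every ratio as it was. With the class mix of the normal library held, 1 gene (Plau) instead of 4 was higher in IMQ than in normal over all kept cells. In fibroblast-like cells past 2-fold, 1 (Serpine2) instead of 3 was higher in IMQ than in normal and 1 (Ptn) instead of 2 in IMQ+celastrol than in IMQ. There 2 instead of 1 were lower in IMQ than in normal with no minimum of UMIs (A2m and Ptn), and with Scrublet's own threshold, each library clustered by itself or at most 10% mitochondrial UMIs (Ptn and Mdk). Lower in IMQ+celastrol than in IMQ were 2 with median-of-ratios size factors (Plaur and Serpine2) or each library clustered by itself (Serpine2 and Lpl) and 0 with no doublets left out, instead of 1. In keratinocyte-like cells thinned to 2000 UMIs, 3 of 5 genes (Plat, Plau and Plaur) instead of 5 of 7 were higher in IMQ than in normal. There 2 instead of 1 were higher in IMQ+celastrol than in IMQ with no minimum (Apoe and Mdk), and with Scrublet's own threshold, resolution 2, each library clustered by itself or at most 10% mitochondrial UMIs (Apoe and Ptn). The cause of these moves was not tested. Over all kept cells, Lpl was short of 1.5-fold between IMQ+celastrol and IMQ as a mean over cells (log2 ratio -0.29) and after thinning (-0.35), and Mdk as a mean over cells (0.54) and without the follicle clusters (0.20). Serpine2 of keratinocyte-like cells was short of it between IMQ and normal in 3 alternatives (0.37 to 0.54). Size factors moved the median of all genes between IMQ and normal over all kept cells from -0.12 to 0.01 and the share of higher among all calls from 41.6% to 52.0%. In fibroblast-like cells between IMQ+celastrol and IMQ that share went from 66.5% to 49.6% and the median from 0.13 to 0.00063. Scrublet's own threshold called no cell of the IMQ library, where the rate was kept, so that alternative treats libraries unequally. The 1 to 2 UMIs of A2m per library are limited by depth.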
